A study of Arabidopsis thaliana with 3 samples.

Results

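UAU and CAU sites are N6-methyladenosine (m6A) positions whose adenosine has a pyrimidine directly before it and a uracil directly after it. They were taken as every row of the deposited Arabidopsis table whose 3-letter motif is UAU or CAU, a choice that used sequence and no level. There were 5502 of them among 120269 listed sites (4.57%), 4076 UAU and 1426 CAU. All 5501 nuclear members had the listed triplet in the RefSeq copy of the genome, and 1 further member was mitochondrial.

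The samples were seedlings of Arabidopsis thaliana Col-0, a wild-type laboratory accession, harvested whole at 7 days after growth in long days, with 16 h of light, at 22 °C. They were 3 biological replicates of 1 group, with no treatment, mutant or unmethylated control in the table. Polyadenylated RNA was read by CAM-seq, in which carbonyl and Lewis acid catalysts turn unmodified adenosine into inosine, which is sequenced as G, whereas m6A stays A. The m6A level of a site is the percentage of reads that stay A. Each site has 1 count without a sample name, taken here to hold the replicates together. The spread between replicates was therefore not available, and Wilson 95% intervals are given in its place. These intervals cover counting error only.

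m6A is placed on plant mRNA by a nuclear complex built around the methyltransferases MTA and MTB with FIP37, VIRILIZER and HAKAI, and it is bound by YTH-domain proteins such as ECT2. Its usual consensus has purines before the methylated adenosine and a cytosine after it, and the marks gather near the stop codon and in the 3′ UTR. A triplet with U or C before and U after the adenosine departs from that consensus on both sides.

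The strongest UAU and CAU sites show what such positions look like. The sequences below are the 5 UAU and 5 CAU sites of highest level at a depth of at least 100 reads, followed by the deepest strongly methylated site, a deep and strong site, and a pair of sites with little methylation beside a nearly fully methylated neighbour. Each is 21 bases of the transcribed strand from RefSeq TAIR10.1, in DNA letters with the triplet in capitals.
AT5G39800, UAU: cttatgtgcTATtcttaaaat
AT5G40080, UAU: cttttgtgcTATtcttaaaat
AT2G39000, UAU: tgtaaatgcTATtgtctataa
PREP1, UAU: tgtcaaagcTATattattgaa
AT1G64150, UAU: aaatattagTATattgtttat
AT5G24710, CAU: tttatttggCATattattaaa
SR34, CAU: tattcttgcCATtcttcgtct
AT5G23250, CAU: tgtctatgcCATtctattttt
EYE, CAU: gtattacagCATtgtctaatg
AT5G15320, CAU: tttgaaaagCATattatacgg
PSBTN, UAU: ctgtaatcgTATatttgatca
PRPL35, UAU: gtattgtgaTATaatttggtc
HEMB1, UAU: atttgagacTATtgtgatttt
ACO1, CAU: aattggaaaCATtatcactgt

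All 10 of the highest sites lay in the 3′ UTR, in the last exon of the transcript, between 74 and 171 nt after the stop codon. All 10 had U at position +4, counting from the methylated adenosine. Position -2 was C in 6 of them and G in the other 4, and position -3 was G in 7. Levels had chosen these sites, so these features describe them and test nothing.

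The highest UAU level at this depth was 83.6% (95% interval 76.4 to 88.9, 134 reads) in AT5G39800 at chr5:15937024-15937044 on the plus strand. AT5G40080 followed with 79.3% (71.7 to 85.2, 135 reads) at chr5:16040084-16040104 on the minus strand. Both genes are annotated as mitochondrial ribosomal protein L27, and their 31-base contexts differ at 1 of 31 bases, so the reads of the copies may be shared and the pair should be read as uncertain. The acyltransferase-family gene AT2G39000 had 77.8% (69.8 to 84.2, 126 reads) at chr2:16286349-16286369 on the minus strand. PREP1 (AT3G19170), a presequence protease of mitochondria and chloroplasts, reached 74.1% (69.9 to 77.9) over 460 reads at chr3:6625469-6625489 on the minus strand. The intervals of these sites overlap, so their order is not settled at this depth. AT1G64150, of an uncharacterized protein family, had 73.8% (65.7 to 80.6, 130 reads) at chr1:23808958-23808978 on the minus strand.

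Among CAU sites the highest was 77.7% (68.7 to 84.6, 103 reads) in the WD40-repeat gene AT5G24710 at chr5:8458967-8458987, minus strand. SR34 (AT1G02840), a serine/arginine-rich splicing factor, had 66.8% (63.0 to 70.4) over 624 reads at chr1:629729-629749, plus strand. The succinyl-CoA ligase gene AT5G23250 had 63.2% (55.3 to 70.4, 152 reads) at chr5:7832643-7832663, plus strand. This CAU site was the highest of the 12 listed sites of its gene, the next of which stood at 54.5%. EYE (AT5G51430), a conserved oligomeric Golgi complex subunit, had 59.8% (51.3 to 67.8, 132 reads) at chr5:20886960-20886980, minus strand, and AT5G15320, annotated as an ATP synthase E chain, had 58.6% (54.0 to 63.0, 459 reads) at chr5:4978773-4978793, plus strand.

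Such levels were the exception. The mean level was 11.8% over UAU sites (SD over sites 10.6, n = 4076) and 10.8% over CAU sites (SD 9.99, n = 1426), against 32.9% over the 114767 other sites. Those other sites include AAC at 44.8% and GAC at 44.1%, but also GAG at 14.8% and AAG at 13.6%. Among the rarely listed motifs, CAA stood at 12.6% (n = 59), above both member classes. UAG stood at 8.27% (n = 110), UAA at 8.04% (n = 22) and CAG at 7.82% (n = 105). The median member stood at 8.31%, with quartiles of 4.98% and 14.3%, and 3278 members (59.6%) were under 10%. A level of at least 20% was reached at 765 members (13.9%, 95% interval 13.02 to 14.8) and at 55.1% of the other sites (54.8 to 55.4). A level above 50% was found at 74 members (1.34%, 1.07 to 1.69), 55 UAU and 19 CAU. The highest of all was a CAU site at 92.0%, which had fewer than 50 reads.

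**Figure D1:**
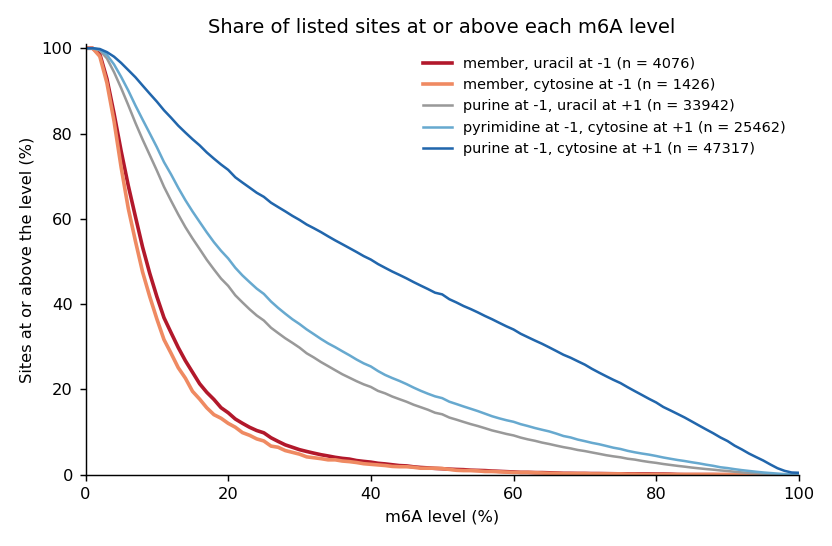
Percentage of listed sites (vertical axis) at or above each m6A level (horizontal axis, %), for both member classes and for 3 classes that share a base with them or match the consensus, each line being 1 class with its number of sites. Both member lines fall fastest: 14.5% of UAU and 12.1% of CAU sites reach 20%.

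The table holds only adenosines with at least 20 reads and a binomial p-value under 0.001 against a conversion background of 1%, so the lowest level that could be listed falls with depth. It was 20% at 20 reads, 6% at 100 reads and 2.2% at 1000 reads. Members had a median depth of 188.5 reads (quartiles 87 and 475), against 104 at the other sites. A depth of 20 to 49 reads gave a median UAU level of 17.4% and a depth of at least 1000 reads gave 3.45%. CAU sites went from 16.7% to 3.20% over the same range, and AAC sites, which fit the consensus, from 45.5% to 27.3%. The p-value lay between 1e-04 and 1e-03 at 990 members (17.99%), against 8.75% of all sites. Levels of members are therefore compared below mostly with sites of the same transcript or of the same class.

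**Figure D2:**
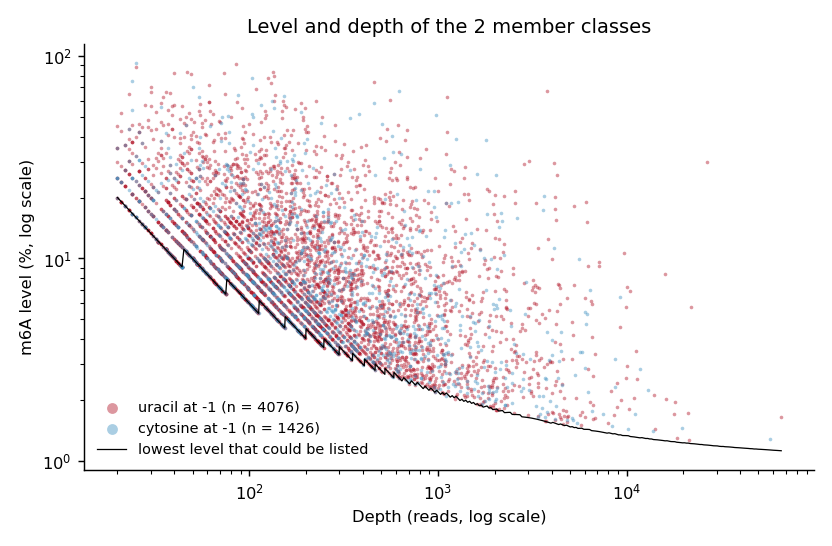
Depth in reads (horizontal, log scale) and m6A level in percent (vertical, log scale) of the 4076 UAU and 1426 CAU sites, 1 point per site, with a line at the lowest level that could be listed at each depth. Points crowd just above the line, and single members stand far above it at any depth up to the 29.98% over 26783 reads in PSBTN.

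Several strong members rested on very deep coverage. PSBTN (AT3G21055), the nuclear gene of photosystem II subunit T, had a UAU level of 29.98% (29.4 to 30.5) over 26783 reads at chr3:7376669-7376689, minus strand, 82 nt after the stop codon. It was the highest of 8 listed sites of that gene, whose other sites reached at most 6.45%. PRPL35 (AT2G24090), a plastid ribosomal protein, had 66.8% (65.3 to 68.3) over 3774 reads at chr2:10243489-10243509, plus strand. A GAU site 2 nt before it in PRPL35 stood at 31.9% (30.4 to 33.3), and the difference passed Fisher's exact test (Benjamini-Hochberg adjusted p = 4.5e-208). PGR5-LIKE A (AT4G22890), a component of cyclic electron flow, had a UAU level of 25.8% (24.5 to 27.2, 4253 reads). AT1G15930, a ribosomal protein of the L7Ae family, had 29.6% (28.2 to 31.04, 4098 reads). The glycolytic gene GAPC1 (AT3G04120) had 20.1% (18.9 to 21.4, 4166 reads).

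The deepest CAU sites of at least 20% were in ribosomal protein genes and a hydrolase. RPL24A (AT2G36620) had 20.3% (19.02 to 21.6, 3656 reads), the alpha/beta-hydrolase gene AT3G23600 had 25.9% (24.1 to 27.9, 2026 reads), and the chloroplast ribosomal protein gene RPL21C (AT1G35680) had 38.6% (36.4 to 40.9, 1795 reads). All 8 of these deep members had U at position +4.

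Triplets were then counted in 14819 3′ UTRs, those of 1 coding transcript per gene for the genes with a listed site that could be placed on one. Of every 10000 UAU triplets 286 were listed, and of every 10000 CAU triplets 161. The consensus triplets GAC and AAC were listed at 3714 and 3664 per 10000. Rates lay in between with only U after the adenosine, 1269 for AAU and 1644 for GAU. They also did with only a pyrimidine before it, 3003 for UAC and 1760 for CAC. With a purine on both sides the rates were 326 for AAG and 425 for GAG, but 34.6 for GAA and 13.6 for AAA. Triplets with a pyrimidine before and a purine after the adenosine were listed at 13.7 for UAG, 15.4 for CAG, 0.517 for UAA and 0.221 for CAA. At a level of at least 20% the rates were 40.9 for UAU and 18.3 for CAU, 1.13 for UAG and 0.514 for CAG. Coverage did not enter these counts, so an unlisted triplet may be unmethylated, weakly methylated or thinly covered.

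The bases around the triplet separated listed from unlisted UAU and CAU. G stood at position -2 in 46.5% of members of any region and in 16.2% of all 3′ UTR triplets of both motifs. U stood there in 8.76% against 37.0%. The share of G was not particular to members, with 46.1% of AAU and 38.5% of GAU sites. It was 17.4% to 21.9% in AAC, GAC, UAC and CAC sites. The rates of UAU and CAU were 697 per 10000 with G at -2, 257 with A, 176 with C and 57.5 with U. G at -3 gave 534 per 10000, against 152 to 218 with the other bases. U at +4 stood in 72.7% of members and in 36.9% of triplets, and its rate was 482 per 10000 against 84.0 to 126 with the other bases. At +2 the rate was 334 with U and 103 with C. Position +4 lies outside the triplet and outside the consensus 5-mer. U at +4 also went with a higher level, 12.4% (SD 11.1, n = 4002) against 9.31% (SD 8.02, n = 1500) without it. That order was not particular to members. It held in AAC (48.3% against 42.0%), GAC (47.6% against 41.4%), UAC (34.7% against 24.5%) and CAC sites (28.1% against 18.2%). AAU (27.0% against 20.6%) and GAU sites (27.5% against 23.0%) had it too.

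**Figure D3:**
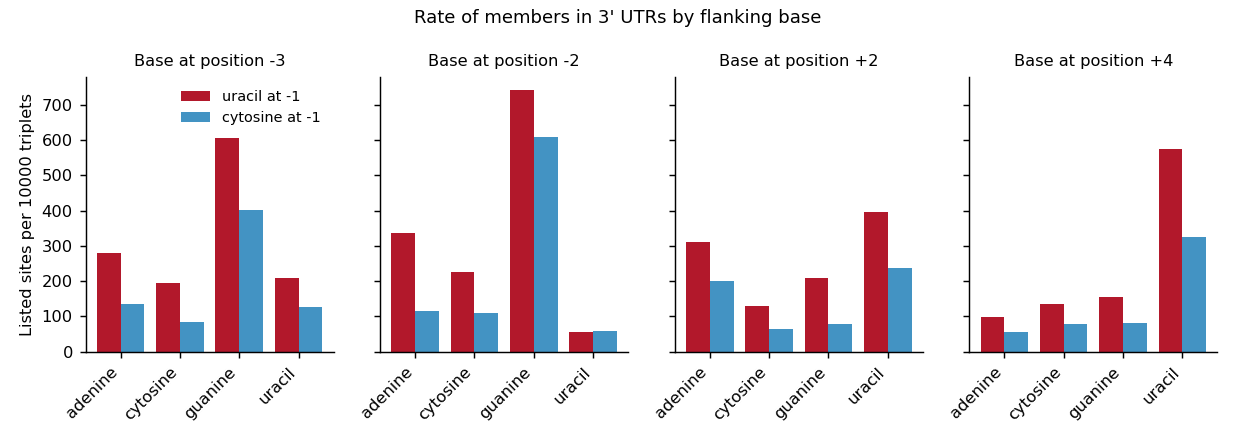
Listed sites per 10000 triplets of the 3′ UTR (vertical axis) by the base at positions -3, -2, +2 and +4 from the adenosine, with 1 bar for UAU (uracil before the adenosine) and 1 for CAU (cytosine before it). Guanine at -3 and -2 and uracil at +4 stand above the other bases for both classes, and uracil at -2 gives the lowest rate for both at that position.

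Rates rose with the number of these bases present, G at -3, G at -2 and U at +4. With none of them 20.2 of 10000 triplets were listed, with 1 of them 237, with 2 of them 1047 and with all 3 of them 1304. The mean level over the listed sites rose along the same order, from 7.00% (n = 192) to 9.41% (n = 2209), 13.1% (n = 2585) and 14.998% (n = 218). The share of at least 20% was 1.56%, 8.37%, 18.2% and 22.0%. The bases were picked from the same sites, so these values describe the members and were not tested.

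The rate with a given base at -2 differed with the base at -3. GCUAU, with G at -3 and C at -2, was listed at 1307 per 10000 (393 of 3006). The rate of ACUAU was 33.6 and that of UCUAU 12.6, and none of 2351 CCUAU was listed. For CAU, the rate was 680 per 10000 with GC before the triplet (GCCAU) and 6.80 for ACCAU. With A at -2, the rate of GAUAU was 830, against 338 for AAUAU and 182 for UAUAU. With G at -2 the rates differed less by the base at -3, with 927 for AGUAU, 1030 for CGUAU, 683 for GGUAU and 641 for UGUAU. The last of these, which contains the UGUA core that the cleavage factor CFIm25 binds in human cells, was the most frequent 5-mer ending in the triplet, with 875 members, a mean level of 10.3% (SD 8.41) and 9.49% of sites at 20% or more. The 506 AGUAU members averaged 14.6% (SD 12.7) and the 211 CGUAU members 15.1% (SD 13.1). UAUAU had 320 members with a mean of 9.40% (SD 6.62).

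Over the 5-mers centred on the adenosine, GUAUU was the most frequent with 891 members and a mean level of 12.3%, before AUAUU with 654 members and 10.5% and AUAUA with 532 members and 13.3%. The highest means among 5-mers with at least 20 members were 16.99% for CUAUA (SD 14.03, n = 130), 15.3% for CCAUA (SD 16.95, n = 30) and 14.4% for GCAUA (SD 12.4, n = 198). All of these carry A at +2, where the mean over all members was 13.4% against 8.78% with C. The median depth was 143.5 reads with adenine at +2 and 227 reads with cytosine there. The lowest means were 6.17% for UUAUG (SD 4.53, n = 69), 6.48% for CCAUG (SD 5.09, n = 20) and 6.60% for ACAUU (SD 6.22, n = 114). In the order named, median depths were 156, 159 and 150.5 reads for the highest means and 311, 548 and 424.5 reads for the lowest. Listed levels fall with depth, and the part of depth in this order was not tested. A purine at -2 gave a mean 0.81 points above that of a pyrimidine (11.7%, n = 4402, against 10.9%, n = 1100). The sign turned to -1.98 points among sites of at least 20%. By single base at -2 the 2 pyrimidines stood at opposite ends, with means of 13.3% for C, 12.3% for G, 10.9% for A and 7.86% for U. Among 79 members of at least 50%, 91.1% had U at +4 (82.8 to 95.6), 51.9% had A at +2 (41.1 to 62.6) and none had U at -2, whereas among 3278 members under 10% the shares were 68.2%, 26.6% and 11.3%.

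UAU and CAU differed little once listed. The mean UAU level exceeded the mean CAU level by 1.03 points, and the difference was -0.0049 among sites of at least 20%. Within the same gene, a UAU and a CAU site within 100 nt of each other formed 476 pairs. By Fisher's exact test on the reads, with Benjamini-Hochberg adjustment over these pairs at an adjusted p under 0.05, UAU was higher in 111 (23.3% of the pairs) and CAU in 87 (18.3%), and 278 gave no call. The median difference was 0.11 points.

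Most members lay in the 3′ UTR. Of 5314 members placed on a coding transcript, 5204 (97.9%, 97.5 to 98.3) lay in the 3′ UTR. A further 97 lay within coding sequence, and 13 members preceded the start codon. The other sites were in the 3′ UTR in 92.2% (92.01 to 92.3), but they mix motifs. Counts in coding sequence and 3′ UTR were 563 and 17025 for UAC, 236 and 6564 for CAC and 540 and 17134 for AAU. They were 730 and 14038 for GAU, 2771 and 28035 for AAC and 1783 and 12597 for GAC. A small coding part was thus not particular to members. CAU sites fell within coding sequence in 3.57% (2.71 to 4.69, n = 1371) and UAU sites in 1.22% (0.919 to 1.61, n = 3943). The window from -20 to +180 nt around the stop codon held 3977 members (74.8%, 73.7 to 76.0), against 71.9% of the other sites (71.6 to 72.1). The last exon held 98.2% of members.

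The rate per triplet peaked at +80 to +99 nt, where 658 members gave 471 per 10000 UAU and CAU triplets. It was 13.8 in the last 20 nt of the coding sequence, 61.3 in the first 20 nt after the stop codon and 101.1 at +300 to +319 nt. The mean level of members did not follow this course. It was 10.1% at +20 to +39 nt, 11.5% at +80 to +99 nt and 11.7% at +200 to +219 nt, and SDs of about the mean itself lay around each. The other sites went from 28.0% to 35.0% and 36.1% over the same bins. The median member lay 122 nt after the stop codon and 154 nt before the transcript end, against 111 and 165 nt for the other sites.

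**Figure D4:**
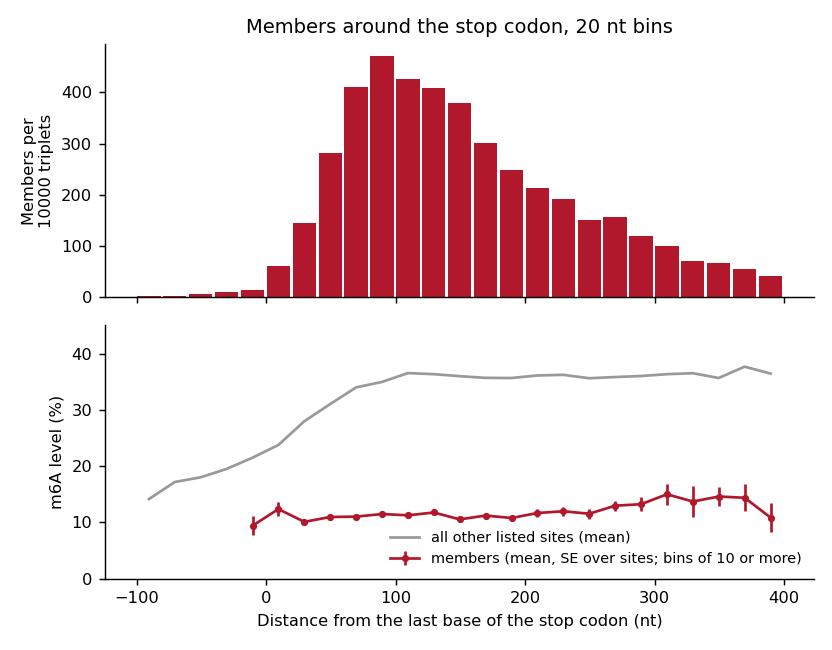
Distance from the stop codon in 20 nt bins (horizontal axis, nt) against the number of members per 10000 UAU and CAU triplets (top) and the mean m6A level in percent (bottom, points with standard errors over sites for members, grey line for all other sites). The rate peaks at 471 per 10000 at +80 to +99 nt, while the mean member level in the plotted bins, those of 10 or more members up to +399 nt, lies between 9.42% and 15.01%.

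Next to other sites of their own transcripts, members were mostly the weaker ones. Each site was set against the nearest listed site of another 3-letter motif in the same gene within 100 nt, by a two-sided Fisher's exact test on the reads, adjusted over all 109669 pairs of the table. Of 5241 members with a partner, 3307 (63.1%) were lower at an adjusted p under 0.05, where 32.9% of all pairs gave that call. Members were higher in 408 pairs (7.78%), against 33.9% of all pairs. The median difference was -18.1 points (quartiles -52.2 and -1.73), and the partner lay a median of 7 nt away. Reads at such distances are partly the same molecules, so the 2 counts of a pair are not independent.

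The contrast differed with the partner's motif. Beside AAC or GAC, 1114 of 1243 members were lower and 11 higher, with a median difference of -62.9 points. Beside UAC or CAC the median difference was -22.2 points (834 lower, 55 higher, of 1154), and beside AAU or GAU it was -8.81 points (1173 lower, 206 higher, of 2167). Against each other, UAU and CAU in 253 such pairs gave 54 lower and 51 higher. Mutual neighbours enter this count from both sides, as lower and as higher, so its near balance is partly built in. Of 145 UAU sites with a CAU as nearest partner, 36 were lower and 20 higher. Of 108 CAU sites with a UAU as nearest partner, 18 were lower and 31 higher. By single motif, UAU was lower in 61.9% of its pairs and CAU in 66.5%. Other motifs came close, with 63.5% for UAG, 63.0% for CAG, 52.1% for AAG, 51.1% for GAG and 50.4% for CAC. The share was 13.3% for AAC and 15.6% for GAC. It was also low for UAA (25% of 12 pairs) and CAA (4.55% of 22 pairs).

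**Figure D5:**
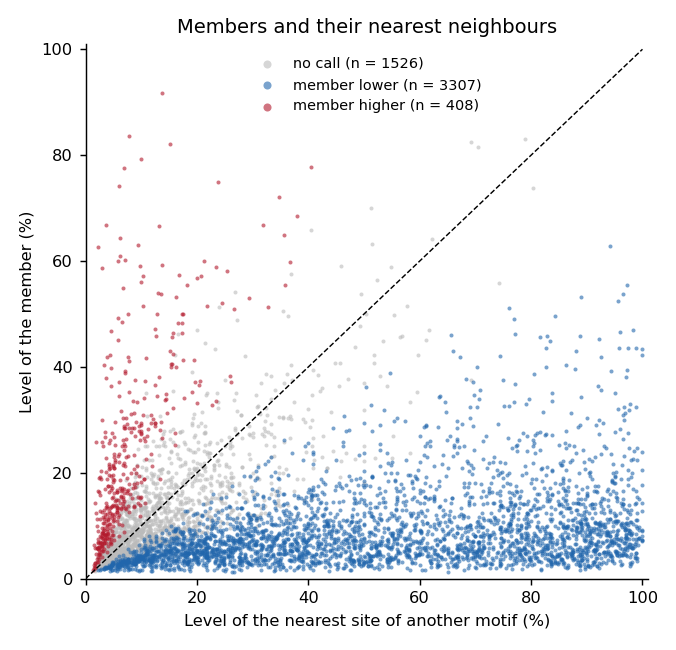
Level of each member (vertical axis, %) against the level of the nearest site of another motif (horizontal axis, %), 1 point per pair, coloured by the call of Fisher's exact test, with the line of equal levels. The 3307 lower members spread along the bottom up to partners near 100%, and the 408 higher members lie above the line, beside partners of at most 40.4%, the AAU site of AT2G39000.

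Among pairs with at least 100 reads at both sites, the members furthest below their neighbours sat beside almost fully methylated sites. In HEMB1 (AT1G69740), which makes an enzyme of tetrapyrrole synthesis, a UAU level of 3.44% (2.66 to 4.45, 1626 reads) stood 3 nt after a GAC site at 98.98% (98.3 to 99.4). In ACO1 (AT4G35830), aconitase, a CAU level of 2.82% (1.66 to 4.76, 461 reads) stood 2 nt after an AAC site at 97.9% (96.2 to 98.9, adjusted p = 5.9e-237 by Fisher's exact test). AT1G36320, GSL12 (AT5G13000, a callose synthase) and AT5G24690 showed the same order, with members at 2.45%, 4.02% and 3.16% beside partners at 97.8%, 99.05% and 98.1%. None of these 5 had G at -2, and 3 had U at +4. In HEMB1, ACO1 and AT5G24690 the partner's triplet covers position -2 and so fixes the base there. Level differences had chosen the 5 sites, so these features describe them and test nothing.

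Among pairs with at least 100 reads at both sites, the 5 members furthest above their neighbours included 4 of the 10 highest sites printed above. AT5G39800, whose AAU neighbour at 7.78% had 90 reads, did not meet that limit. The UAU of AT3G03070, a subunit gene of NADH-ubiquinone oxidoreductase, had 62.6% (59.7 to 65.4, 1113 reads), and a CAU site 10 nt before it had 2.17% (1.57 to 2.97, 1709 reads, adjusted p = 1.9e-305 by Fisher's exact test). In SR34 a CAU at 66.8% stood 9 nt after a UAU at 3.70% (2.48 to 5.49, 622 reads). In AT5G24710 a CAU at 77.7% preceded a UAU at 6.86% (3.36 to 13.5, 102 reads) by 2 nt. These 3 pairs set UAU and CAU sites of the same 3′ UTR against each other, and the higher member was UAU in 1 and CAU in 2. PREP1 held its UAU at 74.1% 4 nt from an AAG site at 6.10% (4.33 to 8.53, 508 reads).

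Members often lay directly beside another listed site. Another site was within 3 nt of 1800 members (32.7%), against 15.2% of all sites, and 1457 had one at exactly 2 nt. An A stood 2 nt before 1845 members, and that A was itself listed in 1150 cases, at a mean level of 37.8%. The members beside a listed A averaged 10.4% (SD 9.04), those beside an unlisted A 11.7% (SD 10.1, n = 695). The member exceeded the listed A in 203 of the 1150 cases. On the other side an A stood 2 nt after 1694 members and was listed in 359 cases, with member means of 13.1% when it was listed and 13.4% when it was not. Reads with more than a few unconverted adenosines were removed by the authors, and the part of that filter in levels at close sites was not tested.

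The 5332 members named with a single gene fell in 3705 genes, 24.4% of the 15198 genes with a listed site. Of these genes 2583 had 1 member, 783 had 2 and 339 had 3 or more. Genes with a member had a median of 11 listed sites, and genes without one had 6. A gene with more listed sites has more chances to hold a member, and no adjustment was made for this. Of 3674 genes with a member and at least 2 sites, a member was the highest site in 37, a UAU in 27 and a CAU in 10. The median gene with a member had its highest site at 86.0% and its highest member at 9.69%. A member of at least 20% occurred in 676 genes and one of at least 50% in 78.

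UPF1 (AT5G47010, listed as LBA1), the helicase of nonsense-mediated decay, had most members, 9 UAU sites among 22 listed sites, within 100 nt of its 3′ UTR. They were between 5.83% and 32.5%, with a mean of 14.7% (SD 9.95), and 3 reached 20%. The strongest, 32.5% (24.8 to 41.3, 120 reads), stood 8 nt after a UAC site at 98.8% (95.7 to 99.7). The UAU at 20.2% (13.9 to 28.3, 119 reads) lay 2 nt after a GAU at 95.3% (90.1 to 97.8), while 6 nt further on another UAU at 28.6% (20.6 to 38.2, 98 reads) lay 2 nt after a GAU at 7.77% (3.99 to 14.6). Members of UPF1 were thus lower than the neighbour in the former case and higher in the latter, and both differences passed Fisher's exact test (adjusted p = 3.8e-36 and 3.3e-04).

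The other genes with most members had 0 to 2 members of at least 20% each. VHA-A (AT1G78900), the catalytic subunit of the vacuolar proton pump, had 7 members between 2.55% and 15.2%. CRT3 (AT1G08450), an endoplasmic reticulum lectin, had 6 members within a short stretch, of which UAU sites at 37.4% (30.7 to 44.6, 182 reads) and 34.3% (27.6 to 41.8, 169 reads) stood above the other 4, at 4.97% to 16.7%. In CRT3 the UAU at 37.4% lay 2 nt after a CAU at 10.6% (6.99 to 15.9, 188 reads, adjusted p = 3.2e-09 by Fisher's exact test). RPL9 (AT3G44890), a ribosomal protein, had a UAU at 34.6% (31.5 to 37.8, 868 reads) among 6 members, and the UAU 5 nt after it had 7.76% (6.23 to 9.61, 967 reads). SYP71 (AT3G09740), a syntaxin, had 6 members between 5.03% and 21%. In CRT3 and RPL9 these neighbouring members of 1 transcript thus differed several-fold with intervals that did not overlap. Such pairs were picked for their genes, and 278 of the 476 UAU and CAU pairs above gave no call.

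Gene lists of the m6A system and of seedling functions were read for members, against the 24.4% of all genes with a listed site. Lists and all genes were not matched for the number of listed sites per gene. Of 5 writer genes 1 had a member, VIRILIZER (AT3G05680, listed as EMB2016), a CAU at 27.6% (19.97 to 36.8, 105 reads) in its 3′ UTR. It stood 10 nt from a UAC site at 97.5% (91.2 to 99.3). Of 12 YTH reader genes 4 had members, all weak, at 3.32% in ECT2 (2.05 to 5.32, 482 reads), 5.41% in ECT8, 10.5% in ECT5 and 10.1% in ECT7. ECT2 is a major reader of growing tissue, and its CAU lay 5 nt from a GAC at 51.1% (45.6 to 56.5).

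The highest member of any of these lists was in a cleavage and polyadenylation factor gene, at 73 reads. Of the 12 such genes with a listed site 3 had members. CPSF100 (AT5G23880) had a UAU at 82.2% (71.9 to 89.3, 73 reads) 75 nt after the stop codon, 14 nt from an AAC at 15.1% (9.05 to 24.2, adjusted p = 1.8e-17 by Fisher's exact test). The poly(A) polymerase gene PAPS2 (AT2G25850) had a UAU at 39.4% (28.9 to 51.1, 71 reads), and AT4G25550, the 25 kDa subunit of the cleavage factor, had a CAU at 15.3% (11.3 to 20.3, 249 reads). Of the 9 clock genes with a site, ELF3 (AT2G25930), of the evening complex, had a UAU at 51.2% (42.5 to 59.9, 123 reads), and ZTL (AT5G57360), a blue-light F-box protein, had one at 6.08% (3.23 to 11.2, 148 reads).

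The lists of photosynthesis genes held members of low level, though PSBTN and PGR5-LIKE A above, which are in neither list, stood at 29.98% and 25.8%. Light-harvesting antenna genes had members in 4 of 19, at 1.85% (1.59 to 2.15, 8910 reads) in LHCB5, 2.11% (1.88 to 2.36, 13898 reads) in LHCB4.1, 5.96% in Lhca6 (654 reads) and 6.50% in LHCB4.3 (200 reads). Rubisco and Calvin cycle genes had members in 4 of 16, at 1.41% (1.22 to 1.62, 13875 reads) in GAPB, 1.72% (1.56 to 1.91, 21262 reads) in FBA2, 2.28% in HCEF1 and 5.03% in RPE. All of these levels but that of LHCB4.3 lie under 6%, the lowest level that could be listed at a depth of 100 reads. Of 14 photoreceptor and light signalling genes 6 had members, at 3.57% in CRY1 (2.10 to 6.01, 364 reads), 4.40% in CRY2 (2.24 to 8.43, 182 reads), 6.4% in PHOT1 (3.98 to 10.1, 250 reads), 8.16% in COP1 (4.73 to 13.7, 147 reads), 10.9% in PHYA and 21.2% in PHYD (12.2 to 34.0, 52 reads). The intervals of CRY1, CRY2 and PHOT1 overlap. CRY2 carried its UAU 4 nt from an AAC at 70.7% (63.4 to 77.2), and COP1 carried its UAU 13 nt from an AAC at 88.0% (81.1 to 92.6).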

How the data were processed

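As the labels and methods describe, the authors used Cutadapt for trimming, mapped reads to TAIR10 with hisat2-3n, and removed reads with many mismatches or many unconverted adenosines. Tool versions are not given in the sources used here. The deposited table gives for each site the coverage (depth, a whole number of reads), the raw count of unconverted reads and a binomial p-value made by the authors. No column names a sample, so each value was taken to hold all 3 replicates, and no spread between replicates or per-sample depth was available. Recomputed p-values differed from the deposited ones by a relative 9.56e-12 at most. The methods state the p-value threshold in more than 1 way, and the table reaches 9.99e-04.

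Level is unconverted reads over depth. Python 3.11.15, pandas 2.3.3 and SciPy 1.17.1 gave Wilson intervals, Fisher's exact tests and Benjamini-Hochberg adjustment. Fisher's test was tried on simulated pairs whose reads were drawn independently, so molecules shared by close sites were not covered. Regions come from the RefSeq TAIR10.1 transcript with the longest coding sequence, and TAIR10 positions were checked against its bases. The 31-base context was identical in the reference at 5463 of 5501 nuclear members. Flank rates leave out triplets at the very ends of a transcript.

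The members and gene lists were chosen with earlier results of these data known. Sites named in the text have 1 gene and a context listed once: the highest and the deepest of each class, those of the genes with most members, those furthest from their neighbour, and the highest in each gene of 7 lists. Alternatives tried were stricter depth, p-value, level and distance limits, other averages and another transcript choice.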

Additional observations from a re-analysis of the deposited data

Results flagged for a closer look

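Some members carried a signal but were not placed on a single coding transcript, and they are given here as values. Without a gene name there were 155 members with a mean level of 14.1%, of which 121 lay inside a gene of the same strand and 28 within 500 nt after one. The highest was a UAU at 46.0% (95% interval 34.3 to 58.2) over 63 reads at position 3374428 of chromosome 5, minus strand. The single mitochondrial member, a CAU in ATMG00020, had 3.49% (2.05 to 5.89) over 372 reads. Another 15 members were named with several genes and ranged from 4.50% to 20.2%, the highest being a UAU at 20.2% (15.1 to 26.4) over 193 reads in AT1G70650 and AT1G70660.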

How the results depend on the processing

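No paired analysis was possible because the deposited counts name no sample and were taken as a pool of the 3 replicates. For the same reason no replicate could be left out in turn. Depth sets which levels can be listed, so the mean level moves with every limit on depth, p-value or level. Of 78 values recomputed under the alternatives, 42 stayed within their interval or within 1.5 times the count, 34 moved further and 2 changed sign. With contexts listed once, gene means or the first-numbered transcript, all values stayed. Reads of a pair overlap, and 3′ UTR triplets were counted whether covered or not. The cause of the moves below was not tested, beyond the fewer sites that each limit leaves.

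Counts were judged by their size alone, so the number tested is given beside each. At a depth of at least 100 reads the mean level was 9.08%. The difference between purine and pyrimidine at -2 was 0.083 points. The 3′ UTR then held 98.6% and the stop codon window 77.5%. A member was highest in 61 of 2572 genes, against 37 of 3674 without the limit, and the rate was 172 per 10000 triplets. With p-values under 1e-06 there were 3345 sites with a mean of 14.5%, and the window held 76.7%. Of 3202 members with a partner 2073 were lower than it. A member was highest in 24 of 2439 genes, the rate was 147, and CAU exceeded UAU in 51 of 233 pairs. With levels of at least 20% there were 765 sites with a mean of 32.2%, the difference of UAU and CAU was -0.0049 points and that of purine and pyrimidine was -1.98 points. The 3′ UTR then held 97.4% and the window 72.6%. Of 695 members with a partner 398 were lower and 40 higher than it. A member was highest in 17 of 648 genes, and the rate was 32.4. Of 10 pairs, UAU exceeded CAU in 0 and CAU exceeded UAU in 3. Without sites that have another within 3 nt, the 3′ UTR held 97.1% and the rate was 159. Of 3483 members with a partner 253 were higher than it. UAU was higher in 47 of 224 pairs and CAU in 41. Pairs within 30 nt gave UAU as higher in 60 of 309. A difference of at least 10 points left 228 of 5241 members higher, with UAU higher in 55 of 476 pairs and CAU in 52. Weighted by depth, the mean level was 6.63%. The window from -20 to +100 nt held 36.5%.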
